A study of Mus musculus with 12 samples.

Results

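The kallikrein gene family codes for secreted serine proteases. Members were taken by gene symbol, as every gene named Klk with a number, with the copy numbers of the Klk1b subfamily and the pseudogene ending -ps included, and without Klkb1, the plasma kallikrein, which is a separate gene. This gave 37 of the 40077 genes in the table for cultured cells, and the same 37 of the 34508 genes in the table for tumors. The family was chosen on a measured value, the level of Klk1b11 in tumors, which lay above vehicle in tumors treated with YJ1206. Differences of the members between YJ1206 and vehicle tumors are therefore given below as a description, with no test, and no family count from that comparison is support for a change.

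RNA was sequenced from 12 mouse libraries, 3 in each of 4 groups. Myc-CaP, a line from a mouse prostate carcinoma driven by human MYC, was cultured with DMSO, for which the labels give no time, or for 24 hours with 1 μM YJ1206. Subcutaneous Myc-CaP tumors were grown in male FVB mice that received vehicle (PEG400, Cremophor EL and PBS) or YJ1206 at 100 mg/kg by mouth, 3 times per week. YJ1206 is a degrader of the transcriptional kinases CDK12 and CDK13, and all 4 groups hold the same MYC-driven line, with host cells added in the tumors.

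Tissue kallikrein, the product of Klk1, cuts kininogens to release kinins, peptides that widen vessels through bradykinin receptors. In mice the gene has been copied many times, and the resulting Klk1b genes are best known from the submandibular gland, where several are androgen-dependent and process or bind growth factors such as epidermal growth factor. Klk4 to Klk15 are older relatives that act in skin, enamel, brain and other tissues. Human PSA, the product of KLK3, has no working counterpart in the mouse.

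All 37 versioned gene identifiers were found in GENCODE vM21 (GRCm38), on the plus strand of chromosome 7 between positions 43690418 and 44229618, a stretch of 539.2 kb. The family holds 23 Klk1b genes, 10 of them pseudogenes, then 13 other Klk genes (Klk1 and Klk4 to Klk15), and the pseudogene Klk2-ps. The 23 Klk1b genes and Klk1 fill the last 287.0 kb, from 43942662 to 44229618, and Klk1b11 (ENSMUSG00000044485.4) spans 43995877 to 43999875. Seen from Klk2-ps towards Klk1, the Klk1b genes with no -ps follow each other as Klk1b8, Klk1b1, Klk1b9, Klk1b11, Klk1b26, Klk1b27, Klk1b21, Klk1b22, Klk1b16, Klk1b24, Klk1b3, Klk1b4 and Klk1b5.

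The Klk1b copies resemble each other closely, which bears on how reads could be assigned to single copies. Coding sequences of the 13 Klk1b genes with no -ps were 81.9% to 94.0% identical over 78 pairs (median 87.0%), with Klk1b21 and Klk1b24 the closest pair. Cut into all words of 31 bases, the transcripts of these 13 genes had 41.6% to 80.3% of words found in no other gene (median 60.3%), lowest for Klk1b24 and highest for Klk1b16. Klk1b11 had 566 unique words of 833, or 67.9%. The sum over all 23 Klk1b genes is therefore given beside the single copies. The files and labels do not state a strand-aware count, so strand cannot separate reads of a member from those of an overlapping minus-strand gene. Among annotated transcripts, Klk15, Klk8 and Klk14 share 463, 352 and 267 words of 31 bases with genes outside the family. Klk1b8, Klk1b1, Klk1b9 and Klk1 share 0 such words. Gm44756 overlaps the members from Klk15 to Klk1b9, 2310002F09Rik overlaps those from Klk14 to Klk8, and Gm10109 overlaps Klk1, whereas no annotated gene overlaps Klk1b11, Klk1b26, Klk1b27, Klk1b14-ps, Klk1b21 or Klk1b16.

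The stretch below holds coding bases 667 to 726, counted from the A of the start codon in GENCODE vM21 transcripts. It shows how far Klk1b11, Klk1b8, Klk1b26 and Klk1b16 differ within a window. This 60-base window was chosen as that in which Klk1b26 and Klk1b16 together were least like Klk1b11. Klk1b8 had no part in the choice. Capitals mark bases that differ from Klk1b11, 19 in Klk1b8, 22 in Klk1b26 and 25 in Klk1b16.
Klk1b11: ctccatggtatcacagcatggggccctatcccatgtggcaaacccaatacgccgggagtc
Klk1b8: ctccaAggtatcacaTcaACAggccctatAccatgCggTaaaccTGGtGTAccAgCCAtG
Klk1b26: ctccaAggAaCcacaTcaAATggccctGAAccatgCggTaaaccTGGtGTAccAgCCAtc
Klk1b16: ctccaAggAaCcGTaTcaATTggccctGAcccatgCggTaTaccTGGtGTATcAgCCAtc

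The start regions of these genes are also close copies. Below stand 60 bases before and 20 after the start of 4 genes, 2 with the largest and 2 with smaller tumor differences, from RefSeq on GRCm38.p6, plus strand: Klk1b11 at chr7:43995817-43995896, Klk1b8 at chr7:43950606-43950685, Klk1b27 at chr7:44052230-44052309 and Klk1b24 at chr7:44188176-44188255. Capitals mark the word TTTAAA, which reads the same on both strands.
Klk1b11: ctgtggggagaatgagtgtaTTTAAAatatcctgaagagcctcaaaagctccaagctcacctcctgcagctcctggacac
Klk1b8: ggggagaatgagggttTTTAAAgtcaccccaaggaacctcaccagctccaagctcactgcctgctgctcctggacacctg
Klk1b27: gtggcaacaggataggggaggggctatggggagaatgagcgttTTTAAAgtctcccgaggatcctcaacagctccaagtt
Klk1b24: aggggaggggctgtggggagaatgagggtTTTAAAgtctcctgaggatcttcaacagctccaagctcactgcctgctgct

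TTTAAA lay within the 50 bases before the RefSeq start in 12 of the 13 Klk1b genes with no -ps, against 2.37% of 32851 mouse promoters of the same length. In the exception, Klk1b21, it began at base 5 after the RefSeq start, which lies 36 bases before the start GENCODE gives. Among the 12, the RefSeq starts of Klk1b26, Klk1b16 and Klk1b5 lie 510, 523 and 529 bases after those GENCODE gives. The word TGTTCT or its reverse AGAACA, the core of the element that steroid hormone receptors bind, was in 2 of the 13 windows of 300 bases (Klk1b24 and Klk1b3), against 19.0% of all promoters. The full inverted repeat, AGAACA then any 3 bases then TGTTCT, which is its own reverse and so was searched on both strands, was in 0 of the 13 and in 3 of 32851. These matches describe only the letters in the windows, and they do not separate Klk1b11 and Klk1b8 from Klk1b27 and Klk1b24, which all carry TTTAAA.

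Some facts about the libraries stand before the values. Totals were 13936902 to 18519926 counts in the cell libraries and 15391544 to 26928365 in the tumor libraries, so that 3 counts, taken here as the floor, were 0.162 to 0.215 counts per 1000000 (CPM) in cells and 0.111 to 0.195 in tumors, by counting error alone. The labels name no culture or animal for each library, although the methods speak of independent biological replicates, and p-values measure the spread between these libraries. DMSO and YJ1206 cell libraries carry numbers from separate series, so library series and treatment cannot be told apart. In each tumor group, library 3 lay between libraries 1 and 2 for nearly all genes in which those differed at least 2-fold (99.3% of 419 genes for vehicle, 98.8% of 171 for YJ1206), so whether it comes from a separate tumor is uncertain, and values from libraries 1 and 2 alone are given beside the main ones. Markers of prostate luminal cells were only partly present. Foxa1 stood at 264 to 268 CPM in DMSO cells and 186 to 236 in vehicle tumors, but Pbsn, a secreted protein of the mouse prostate, had no count in any cell or tumor library.

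In cultured cells the family was almost silent. Of the 37 genes, 30 had 0 counts in all 6 libraries, Klk1b11, Klk1b16, Klk1b8 and Klk1 among them. Klk11, Klk14, Klk1b19-ps and Klk1b21 had single counts. Only the pseudogene Klk1b14-ps passed the filter on low counts and entered the test over 11826 genes. Klk1b26 and Klk1b27 had a few counts in every library and did not pass it.

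Klk1b14-ps, an unprocessed pseudogene at 44071860 to 44076002, had 70, 62 and 87 counts under DMSO, which compares with 29, 12 and 15 counts under YJ1206. Scaled by TMM, a factor that evens out library composition, these were 3.59, 3.20 and 4.38 CPM with DMSO and 2.07, 0.905 and 1.15 CPM with YJ1206. Every YJ1206 library was below every DMSO library. The level fell by 1.42 on the log2 scale (SE 0.274, n = 3 and 3, Benjamini-Hochberg adjusted p = 4.09e-05, edgeR quasi-likelihood test), from 3.72 ± 0.601 to 1.38 ± 0.616 CPM (mean ± SD). This call of 1 member of the 1 tested stands against a background in which 76.1% of tested genes were called, 38.3% lower and 37.8% higher, so a lower member is no particular result of the family.

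Klk1b27, the neighbour of Klk1b14-ps on the Klk15 side among the detected copies, went the other way at still lower levels. It had 2, 4 and 3 counts under DMSO against 12, 11 and 7 counts under YJ1206, or 0.103, 0.206 and 0.151 CPM against 0.858, 0.829 and 0.538 CPM. All 3 YJ1206 libraries were above all DMSO libraries, although the DMSO counts lay near the floor of 3. With the filter on low counts removed, the change was 2.21 on the log2 scale (SE 0.672, adjusted p = 0.00266, edgeR). That fit called 9483 of 20442 genes. Klk1b14-ps and Klk1b27 share only 13 words of 31 bases (1.7% of the words of Klk1b14-ps), and all 22 nonzero family counts in the cells were whole numbers, within 0.01.

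Klk1b26, whose product cleaves prorenin, had 5, 8 and 8 counts under DMSO against 1, 4 and 4 counts under YJ1206, and the groups overlapped on the CPM scale. The Klk1b sum was 3.95, 3.92 and 4.93 CPM with DMSO and 3.00, 2.04 and 2.00 CPM with YJ1206. Groups did not overlap, and the sum fell by 0.86 on the log2 scale (SE 0.215, adjusted p = 0.00082, edgeR). Most of it was Klk1b14-ps, which made up 87.4% to 94.6% of the summed TPM (transcripts per 1000000, a level per length) in DMSO libraries and 52.3% to 73.6% in YJ1206 libraries. The fall of the sum lay in that pseudogene, and the rest of the sum, low in counts, did not fall. An exact permutation test on 3 against 3 libraries cannot go below p = 0.1 (two-sided), and that was its value for the sum, for Klk1b14-ps and for Klk1b27. With scaling by total counts in place of TMM the median of all tested genes moved from -0.02 to -0.20 (log2), and the sum fell by 1.04.

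**Figure D1:**
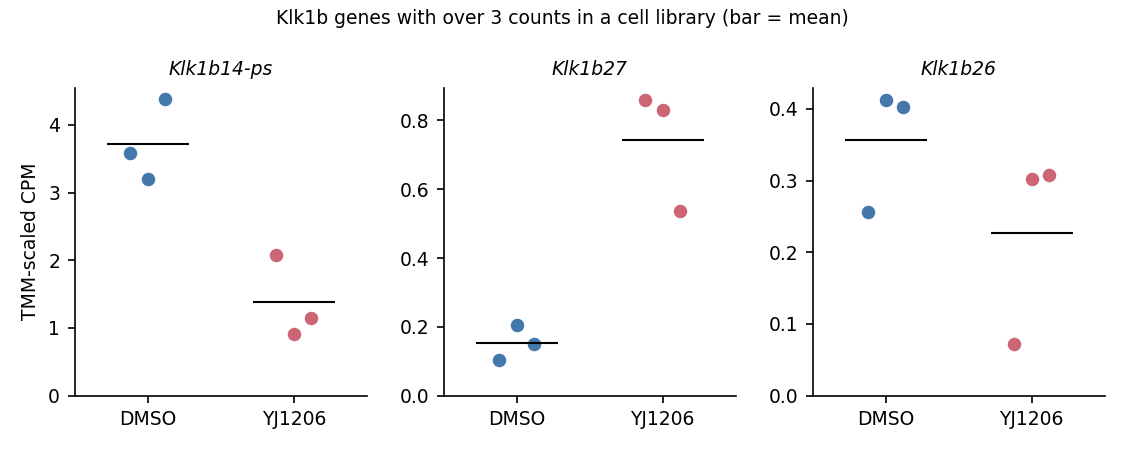
TMM-scaled CPM (vertical axes, each from 0) of Klk1b14-ps, Klk1b27 and Klk1b26 in 3 DMSO and 3 YJ1206 libraries of cultured cells, one point per library with a bar at the group mean. Klk1b14-ps lies at 3.20 to 4.38 with DMSO and 0.905 to 2.07 with YJ1206, Klk1b27 at 0.103 to 0.206 and 0.538 to 0.858, and the groups of Klk1b26 overlap.

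In tumors many more members were detected, and the Klk1b copies carried nearly all of the signal. Of the 37 genes, 30 had counts in at least one tumor library, and 16 passed the filter on low counts, 13 of them Klk1b genes beside Klk1, Klk15 and Klk2-ps. A member with reads mainly under YJ1206 could pass through that group alone, so counts over these 16 describe them and support nothing. The Klk1b sum per length was 97.3, 345 and 193 TPM in vehicle tumors and 456, 611 and 591 TPM in YJ1206 tumors. In the separately scaled table of the cells it was 11.6 to 14.9 TPM with DMSO and 4.29 to 7.08 TPM with YJ1206. The tables hold different gene sets, and the labels name polyA RNA for cells and total RNA for tumors, so these levels stand side by side without a test.

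On the CPM scale the Klk1b sum was 44.3, 180.6 and 95.8 in vehicle libraries 1, 2 and 3, and 258, 351 and 329 in YJ1206 libraries 1, 2 and 3. Every YJ1206 library lay above every vehicle library, and vehicle library 1 was far below the other vehicle libraries. The means were 107 ± 68.8 and 313 ± 48.6 CPM (SD, n = 3), a 2.92-fold difference, or 1.55 on the log2 scale (SE 0.438). Without vehicle library 1 the log2 difference was 1.17, without vehicle library 2 it was 2.17, and with libraries 1 and 2 of each group it was 1.43. In bulk tumors, more cells of a type and more RNA per cell cannot be told apart.

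**Figure D2:**
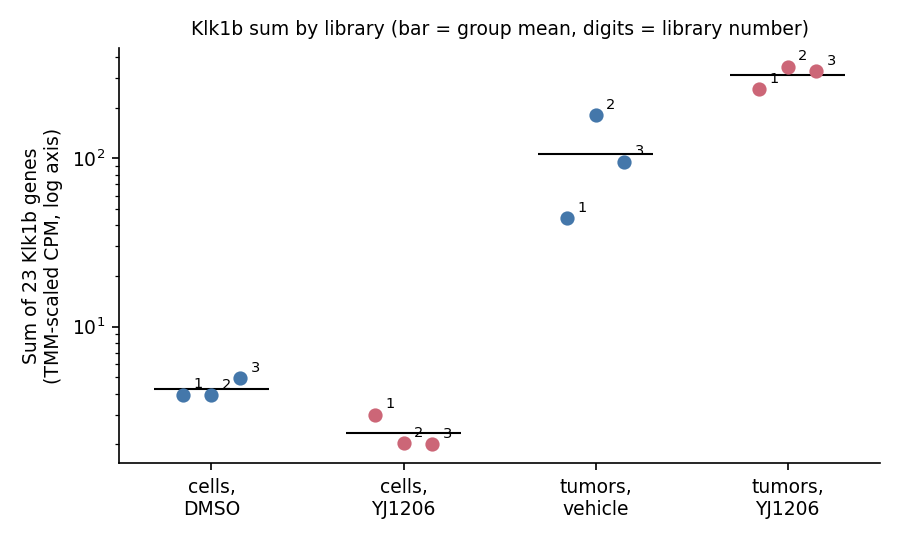
Sum of the 23 Klk1b genes in TMM-scaled CPM on a log axis, one point per library in each of the 4 groups, with a bar at the group mean and the library number beside each point. The cells lie between 2.00 and 4.93, with YJ1206 below DMSO, and the tumors between 44.3 and 351, with YJ1206 above vehicle; cells and tumors were scaled separately.

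Klk1b11, a secreted protease of the subfamily and the gene by which the family was chosen, was at 0.498, 3.91 and 2.91 CPM in vehicle tumors and at 14.6, 16.6 and 15.9 CPM in YJ1206 tumors. The lowest YJ1206 library was well above the highest vehicle library, and the YJ1206 libraries were close together. Mean levels were 2.44 ± 1.76 and 15.7 ± 1.02 CPM (SD, n = 3), a 6.42-fold difference (log2 2.68, SE 0.518). The log2 difference was 2.18 without vehicle library 1, 3.34 without vehicle library 2 and 2.80 with libraries 1 and 2 only. The counts behind it were 11.1, 104 and 45.1 in vehicle and 267, 371 and 310 in YJ1206 tumors. With cultured cells at 0 counts in all 6 libraries, the gene was seen in the tumors only.

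The genes next to Klk1b11 on the Klk15 side showed differences of like size. Klk1b8 was at 0.225, 1.05 and 1.10 CPM in vehicle and 5.73, 5.10 and 5.13 CPM in YJ1206 tumors (log2 2.76, SE 0.424), without overlap. Klk1b9, known as a binding protein of epidermal growth factor, was at 0, 2.10 and 1.23 CPM against 3.46, 7.37 and 6.96 CPM (log2 2.39, SE 0.790). Klk1b1 was at 0, 0.864 and 0.777 CPM against 2.35, 3.00 and 2.06 CPM (log2 2.18, SE 0.714). For both, vehicle library 1 held no count and all 3 YJ1206 libraries lay above the vehicle libraries. Klk1b8 and Klk1b26 share 237 words of 31 bases (17.5% of those of Klk1b26), and Klk1b11 shares most with Klk1b24, 113 words (13.6%).

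Klk1b26 and Klk1b16 are known for proteases that process renin precursors or substrates. Klk1b26, a prorenin-converting enzyme, was at 4.46, 31.7 and 13.3 CPM in vehicle and 59.5, 67.2 and 64.7 CPM in YJ1206 tumors (log2 1.93, SE 0.561). Klk1b16, gamma-renin, was at 8.01, 55.3 and 27.4 CPM against 91.9, 128 and 117 CPM (log2 1.88, SE 0.561). Both showed the same order of libraries, with vehicle library 1 lowest and vehicle library 2 highest among the vehicle tumors, and no overlap between groups.

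Several further Klk1b members were scarcer. Klk1b4, which lacks protease activity, was at 0.135, 0.975 and 0.583 CPM in vehicle and 1.15, 3.00 and 2.52 CPM in YJ1206 tumors (log2 1.94, SE 0.601). Klk1b22, a binding protein of epidermal growth factor, was at 0.0450, 0.262 and 0.323 CPM against 0.655, 0.716 and 1.19 CPM (log2 2.03, SE 0.561). Neither gene's groups overlapped. Klk1b3 did not pass the filter, with 5.03, 7.02 and 4 counts in vehicle and 4.01, 13.01 and 10.02 in YJ1206 tumors.

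Other Klk1b members differed less or overlapped. Klk1b27 was at 15.8, 36.3 and 21.3 CPM in vehicle and 39.0, 57.6 and 55.3 CPM in YJ1206 tumors (log2 1.04, SE 0.298), and its groups were separated by a narrow gap between 36.3 and 39.0. Klk1b14-ps, the pseudogene that led in the cells, was at 9.86, 28.8 and 17.2 CPM against 27.7, 38.4 and 36.1 CPM (log2 0.87, SE 0.345), with vehicle library 2 above YJ1206 library 1. Klk1b21 was at 2.12, 9.94 and 4.91 CPM against 6.71, 16.3 and 13.2 CPM (log2 1.08, SE 0.532) and overlapped likewise. Klk1b5 was at 0.225 to 0.983 CPM in vehicle and 0.710 to 0.895 in YJ1206 tumors (log2 0.67, SE 0.547).

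Klk1b24, which among the 13 Klk1b genes with no -ps has the fewest words of its own, showed almost no difference. It was at 2.52, 7.22 and 3.63 CPM in vehicle and 3.39, 5.50 and 5.51 CPM in YJ1206 tumors, with a log2 difference of 0.09 (SE 0.392) that turned to -0.20 without vehicle library 1 and to 0.67 without vehicle library 2. Klk1, tissue kallikrein itself, was at 0.180, 2.02 and 0.516 CPM against 1.65, 2.33 and 1.44 CPM (log2 0.92, SE 0.685), and the value was 0.41 without vehicle library 1 and 2.46 without vehicle library 2. Klk15 was at 0.720, 0.30 and 0.194 CPM against 0.273, 0.537 and 0.824 CPM (log2 0.39, SE 0.578), and turned to -0.29 with libraries 1 and 2 only. Klk2-ps was at 2.57, 1.95 and 2.45 CPM against 1.42, 2.06 and 1.55 CPM (log2 -0.46, SE 0.230).

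Over the 16 members that passed the filter, 9, all Klk1b, had every YJ1206 library above every vehicle library, against 21.9% of 15558 tested genes. The median log2 difference was 1.48 over the 16 members and 1.93 over the 13 Klk1b genes, against 0.01 over all tested genes. The family was chosen on this comparison, so these counts say nothing further about it.

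**Figure D3:**
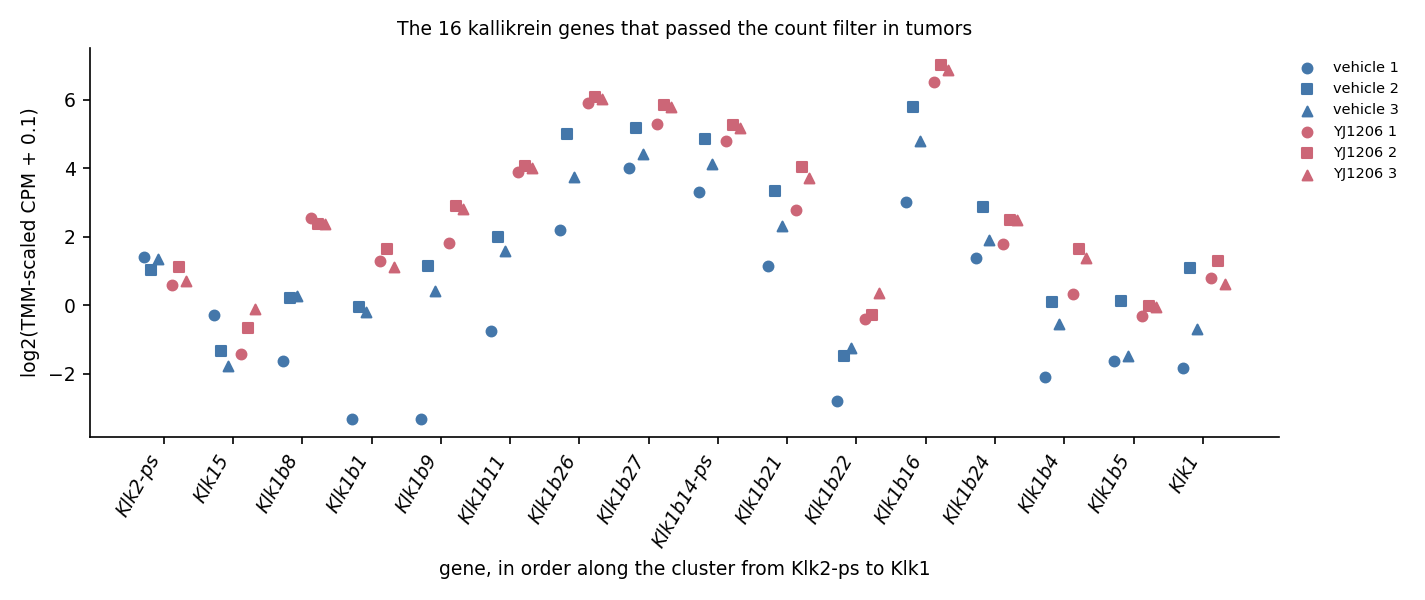
Levels of the 16 kallikrein genes that passed the count filter in tumors, as log2(TMM-scaled CPM + 0.1) on the vertical axis and gene order along the cluster on the horizontal axis, one point per library, blue for vehicle and red for YJ1206, with circle, square and triangle for libraries 1, 2 and 3. Blue circles, vehicle library 1, are lowest for nearly all Klk1b genes, and red points lie above all blue points for 9 genes.

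**Figure D4:**
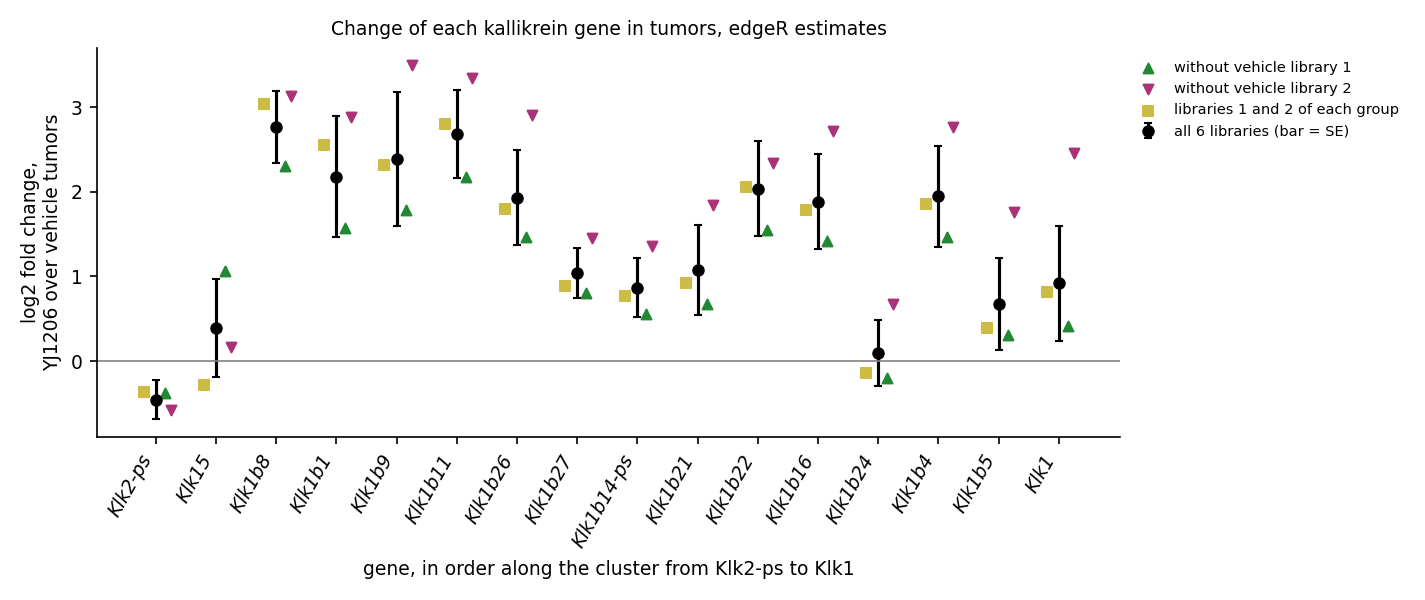
Log2 fold change of YJ1206 over vehicle tumors from edgeR (vertical axis) for the same 16 genes in cluster order, with all 6 libraries (black, bar for the standard error) and with libraries left out (colours). The largest values are those of Klk1b8 and Klk1b11, 2.76 and 2.68, Klk1b24 lies near 0, and most values are smaller without vehicle library 1 and larger without vehicle library 2.

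The other 21 members gave little. No tumor library held a count for Klk5, Klk12, Klk13, Klk1b10-ps, Klk1b12-ps, Klk1b18-ps or Klk1b23-ps. Another 14 had counts without passing the filter, with at most 17 in one library, for Klk11, a protease of skin and prostate (4, 7 and 1 counts in vehicle, 4, 17 and 11 in YJ1206 tumors). Klk1b2-ps was at 0 counts in all vehicle tumors and at 7.01, 2.01 and 3 counts in YJ1206 tumors, and Klk7, a skin protease that sheds corneocytes, had 0 in vehicle and 0, 4 and 7 in YJ1206 tumors. Klk4, the enamel protease, had at most 3 counts in vehicle and 7 in YJ1206 tumors, and Klk6, a protease of the nervous system, had 1 count in one library.

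Per length, the order of the copies differed between groups. In YJ1206 tumors Klk1b16 was the most abundant at 118 to 160 TPM, followed by Klk1b27 (87.2 to 126), Klk1b14-ps (74.3 to 100.4) and Klk1b26 (76.6 to 84.3), each overlapping the next. Klk1b11, at 33.9 to 37.6 TPM, lay below all of these and overlapped Klk1b21 (15.4 to 36.5). In vehicle tumors Klk1b27 (37.5 to 82.3 TPM) and Klk1b14-ps (28.01 to 78.1) stood first on average, Klk1b16 (10.9 to 72.1) and Klk1b26 (6.07 to 41.4) came next, and all 4 ranges overlapped. Klk1b11 at 1.23 to 9.22 TPM was then below the means of Klk1b21 (13.4) and Klk1b24 (10.4), and overlapped both.

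The make-up of the Klk1b sum shifted accordingly. Klk1b14-ps and Klk1b27 together were 67.4%, 46.6% and 50.7% of summed Klk1b TPM in vehicle tumors and 35.4%, 37.0% and 36.9% in YJ1206 tumors. Klk1b8, Klk1b1, Klk1b9 and Klk1b11, the first 4 Klk1b genes with no -ps in cluster order, together were 1.83%, 5.41% and 7.56% against 13.3%, 11.9% and 11.7%. Klk1b11 alone was 1.26% to 3.67% against 6.16% to 7.43%, and Klk1b24 was 4.47% to 6.24% against 1.69% to 2.09%. Shares within a library do not depend on its scaling, although copies that trade reads could still shift them. Of the nonzero family values in tumors, 61.5% of 148 were whole numbers within 0.01, so the rest were split between genes or transcripts by the estimate.

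**Figure D5:**
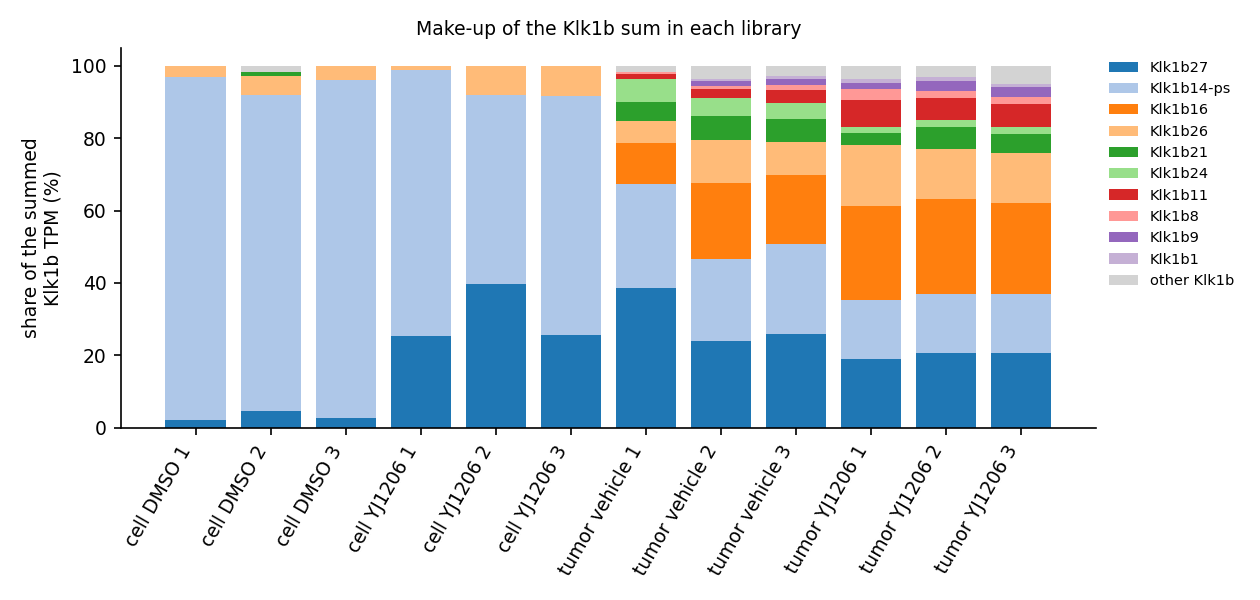
Share of each Klk1b gene in the summed Klk1b TPM (vertical axis, percent) for the 12 libraries, stacked by gene. Klk1b14-ps holds 52.3% to 94.6% in the cell libraries, with more Klk1b27 under YJ1206, and in tumors Klk1b14-ps and Klk1b27 together hold 46.6% to 67.4% in vehicle and 35.4% to 37.0% in YJ1206 libraries.

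Minus-strand pseudogenes that the annotation places among the Klk1b genes were low, with sums higher in every YJ1206 tumor library than in every vehicle library. Summed over 15 such genes, of which 13 had counts, tumors held 4, 60 and 15 counts in vehicle and 118, 130.0 and 139 in YJ1206 libraries. On the CPM scale these sums were 0.180, 2.25 and 0.968 in vehicle and 6.47, 5.81 and 7.16 in YJ1206 libraries. The next genes outside the cluster differed less. 2410002F23Rik was at 104 to 153 CPM in vehicle and 131 to 135 CPM in YJ1206 tumors, and Ctu1, a tRNA-modifying enzyme, at 5.17 to 7.23 and 7.86 to 8.30 CPM.

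Vehicle library 1, lowest for the Klk1b sum, also stood apart in host markers. Calls by edgeR are given here and below for genes outside the family only, in a comparison that called 11.9% of tested genes higher and 14.9% lower, and 1 of 15684 genes with libraries 1 and 2 only. Skeletal muscle markers, all 4 tested of 5 called lower, summed to 714, 20.6 and 440 CPM in vehicle libraries 1, 2 and 3 and to 9.82 to 10.8 CPM in YJ1206 libraries. Fibroblast markers (6 tested) summed to 2298, 743 and 1670 CPM in vehicle and 515 to 1273 CPM in YJ1206 tumors. Epithelial markers (1 of 5 tested called higher, Cldn4) summed to 167, 278 and 212 CPM against 308, 270 and 282 CPM, although Epcam was at most 0.194 CPM in any library. As a percentage of that epithelial sum, the Klk1b sum was 26.5, 64.9 and 45.1 in vehicle and 83.6, 130.0 and 116 in YJ1206 tumors, again without overlap. Taken against the summed prostate luminal list instead, it was 1.67, 5.88 and 3.47% in vehicle and 5.83, 8.52 and 7.76% in YJ1206 tumors. There the groups overlapped, with vehicle library 2 above YJ1206 library 1. Vehicle library 2 had the lowest muscle sum of the vehicle libraries, 20.6 CPM, and the highest Klk1b sum among them, 180.6 CPM. The lowest Klk1b sum of a YJ1206 library was 258 CPM. The part of host tissue in the result was not tested.

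Other tissues that make kallikreins showed few of their markers. Of 10 salivary gland genes, 3 were tested in tumors, Egf among them, while Bpifa2, Smr3a and Pip, secreted salivary proteins, had at most 1 count in a library. Of 10 skin keratinocyte genes, 1 was tested and not called, and the list summed to 11.1 to 13.3 CPM in vehicle and 10.9 to 16.6 CPM in YJ1206 tumors. Leukocyte markers (2 of 6 tested called higher, Cd8a and Itgam) summed to 70.3 to 91.5 and 85.1 to 118 CPM, and endothelial markers (1 of 5 higher, Cdh5) to 95.7 to 103 and 110.1 to 121 CPM. In cells the leukocyte and endothelial lists had no tested gene and summed to at most 0.774 CPM.

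Some genes of prostate luminal cells and of steroid hormone response were compared in both experiments. In cells Fkbp5, a hormone-responsive chaperone (log2 0.16), and the transcription factors Foxa1 (0.23) and Hoxb13 (0.79) rose, each with an edgeR adjusted p of at most 4.97e-06. In tumors Foxa1 was called higher, at 186 to 236 against 281 to 355 CPM. Fkbp5 was called lower, at 771 to 962 against 579 to 583 CPM, and Hoxb13 was not called (log2 -0.02).

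Partners of the kallikreins were mostly not called, or called in both directions. Of 14 genes of the kallikrein-kinin system, 5 were tested in tumors and 1, the kinin-degrading peptidase Mme, was called higher, at 118 to 173 against 191 to 211 CPM. Kininogens were almost absent, with Kng1 at most 0.0489 and Kng2 at most 0.401 CPM, and the bradykinin receptor Bdkrb2 was at 0.562 to 1.26 CPM in vehicle and 0.258 to 0.537 CPM in YJ1206 tumors. Of 19 receptors and substrates, 13 were tested, 4 called higher and 3 lower. Among the higher were F2rl1, a receptor that kallikreins can activate by cleavage (10.5 to 16.1 against 22.1 to 24.9 CPM), and Egf (3.06 to 7.08 against 9.39 to 9.77 CPM). Of 23 inhibitors 11 were tested and 3 called. Spink5, the skin inhibitor of kallikreins, was higher (8.51 to 19.2 against 39.9 to 50.7 CPM), as was Spint2 (224 to 346 against 550.2 to 560 CPM), and Serpina3n was lower (5.59 to 20.5 against 3.76 to 5.24 CPM).

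In cells the same partners gave tested values. F2rl1 rose by 0.75 on the log2 scale (adjusted p = 4.98e-10, edgeR). All 5 tested inhibitors of 23 rose, led by Slpi, a secreted leukocyte protease inhibitor, from 0.201 to 0.258 CPM to 4.36 to 6.84 CPM (log2 4.62, adjusted p = 7.81e-13, edgeR). Of the receptors and substrates 3 of 9 tested rose and 4 fell, and of the kinin system Xpnpep1 rose and Mme fell, in a comparison that called 76.1% of tested genes.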

How the data were processed

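The methods describe libraries depleted of ribosomal RNA (KAPA RNA Hyper with RiboErase, NovaSeq), whereas the labels name polyA RNA for cells and total RNA for tumors. Reads were processed by the authors, whose notes name kallisto and the builds GRCm38 and mm10; tool version and annotation release are not given in the sources used here. For cells and tumors the authors deposited estimated counts per gene, not scaled, and TPM values, scaled by gene length within each library. Estimated counts were rounded, since the tests had been chosen for counts. Cells and tumors were fitted separately, 6 libraries each, with edgeR 4.0.16 (R 4.3.3; filterByExpr with a minimum count of 10, TMM, glmQLFit and glmQLFTest), with Benjamini-Hochberg adjustment over all tested genes and a threshold of 0.05. DESeq2 1.42.0 and limma 3.58.1 on log2(TPM + 1) and log2(TPM + 0.1) were alternatives. Groups came from the labels. All 37 members are accounted for: those that passed the filter are named with values, others by counts. Members, gene lists (kallikrein-kinin system, receptors and substrates, inhibitors, prostate luminal, epithelial, skin keratinocyte, salivary gland, leukocyte, fibroblast, endothelial, skeletal muscle) and tests were chosen with earlier results of these data known. Within groups no libraries were duplicates (chi-square per gene 1.91 to 46.7). Locus positions, coding sequences and 31-base words came from GENCODE vM21, and promoters from RefSeq GRCm38.p6. Python 3.11.15 was used. The steps were tested on simulated data. A few listed genes are not reported here.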

Additional observations from a re-analysis of the deposited data

Results flagged for a closer look

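The Klk1b sum went opposite ways in the 2 experiments. It was lower in every YJ1206 cell library than in every DMSO library (log2 change -0.86) and higher in every YJ1206 tumor library than in every vehicle library (log2 change 1.55). The difference between cells and tumors was not tested. The sums hold different genes, mainly Klk1b14-ps in the cells and mainly Klk1b16, Klk1b26, Klk1b27 and Klk1b14-ps in the tumors. In the cells the mean sum went from 4.266 with DMSO to 2.345 CPM with YJ1206, and Klk1b14-ps from 3.72 to 1.38 CPM. The fall thus lay in that pseudogene, and the rest of the cell sum, low in counts, did not fall.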

How the results depend on the processing

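The results were recomputed with other scaling, no filter on low counts, other tools, libraries left out and replicate numbers as a block. In cells the Klk1b sum kept its direction and stayed past the threshold throughout, from -0.74 to -1.30 (log2). The number of members called in cells was 2 in place of 1 without the count filter, where 9483 of 20442 genes were called. It was 1 to 2 with a library left out, where 8622 to 8824 of 11900 to 12269 tested genes were called. The second gene was Klk1b27. With a library left out it passed the filter only through the YJ1206 libraries where it is high, so those calls are no support. Without the filter it was called as well, with DMSO counts near the floor. In tumors, leaving out one library gave 2.18 to 3.34 for Klk1b11 and 1.17 to 2.17 for the Klk1b sum. Of the other 15 tumor members, 13 kept their sign under all alternatives, all but Klk15 and Klk1b24. That count is a description only, since the family was chosen on this comparison, and the share over all tested genes was not computed. Replicate numbers did not pair the libraries: deviations from group means correlated by -0.031 to 0.023 between libraries of the same number. With the replicate block the Klk1b sum was -0.86 in cells and 1.75 in tumors, Klk1b11 was 2.87, and 1 member was called in cells. At 3 counts or fewer per library, changes of the silent members were not detectable at this depth.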
